A study of Mus musculus with 2 samples.

Results

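The genes described here are 32 mouse genes whose products act in G2 phase and mitosis, from the entry cyclins to the proteins of cytokinesis. They were taken as a fixed list of symbols, each of which was found exactly 1 time among the 31053 genes of the files, so all 32 were followed. The study profiled single cells of back skin from Chrna5-/- mice and from WT mice, with 1 library per genotype. Chrna5 encodes the alpha5 subunit of the nicotinic acetylcholine receptor. Both groups were C57BL/6 females aged 6 to 8 weeks that had received the vaseline cream base on the back, and both were collected on day 7. The extraction text of the labels speaks of imiquimod-treated skin for both libraries, whereas the title, the design text and the sample labels give vaseline only. Live cells were sorted by exclusion of a dead-cell stain. The knockout line is described as backcrossed to C57BL/6N, while the extraction text names C57BL/6J. How many mice went into each library, and the deleted part of the gene, were not given in the sources used here. With 1 library per genotype no difference below has a replicate check, and the difference between genotypes cannot be told apart from a difference between the animals or the preparations.

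A dividing cell raises a common set of transcripts in late S phase and G2. Cyclin A2 and the B cyclins activate Cdk1, polo-like and Aurora kinases drive centrosome, spindle and chromosome movements, kinetochore proteins attach chromosomes to microtubules, and the anaphase-promoting complex with Cdc20 ends mitosis by marking cyclin B for destruction. Many of these genes share a promoter layout in which CCAAT boxes, bound by NF-Y, lie upstream of a cell cycle genes homology region, called CHR, bound by the MuvB complex. In skin the cells that divide are mainly basal keratinocytes, hair follicle keratinocytes and the hair matrix, while suprabasal keratinocytes have begun to differentiate.

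The promoters of 6 of the genes are shown because their genes stand at the ends of the range of ratios or are the usual markers of mitosis. Capitals mark the CHR words TTTGAA or TTTAAA and CCAAT on either strand. Each run is the first 280 bases of the RefSeq window on GRCm38.p6, 5′ to 3′ on the gene's strand, with 250 bases before the start site and 30 after it. The windows are chr1:189688037-189688336 on the minus strand for Cenpf, chr7:135716330-135716629 on the minus strand for Mki67, chr13:100786437-100786736 on the minus strand for Ccnb1, chr9:70421505-70421804 on the minus strand for Ccnb2, chr4:118437294-118437593 on the minus strand for Cdc20 and chr7:122159185-122159484 on the plus strand for Plk1.
Cenpf: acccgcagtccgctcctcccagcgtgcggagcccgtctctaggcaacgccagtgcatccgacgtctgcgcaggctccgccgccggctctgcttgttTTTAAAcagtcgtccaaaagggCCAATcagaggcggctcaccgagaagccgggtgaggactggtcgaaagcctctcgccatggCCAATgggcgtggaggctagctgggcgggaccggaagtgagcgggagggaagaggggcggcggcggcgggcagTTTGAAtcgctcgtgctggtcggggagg
Mki67: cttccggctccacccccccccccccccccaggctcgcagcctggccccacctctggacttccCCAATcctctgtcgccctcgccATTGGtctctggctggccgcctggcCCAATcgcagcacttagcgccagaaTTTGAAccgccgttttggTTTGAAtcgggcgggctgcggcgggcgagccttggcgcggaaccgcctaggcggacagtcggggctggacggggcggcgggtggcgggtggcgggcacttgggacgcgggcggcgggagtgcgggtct
Ccnb1: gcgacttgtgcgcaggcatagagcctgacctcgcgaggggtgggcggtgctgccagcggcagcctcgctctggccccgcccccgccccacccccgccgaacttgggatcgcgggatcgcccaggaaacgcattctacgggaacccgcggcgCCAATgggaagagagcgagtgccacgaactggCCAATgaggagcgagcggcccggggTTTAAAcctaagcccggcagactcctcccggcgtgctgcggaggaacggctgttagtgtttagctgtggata
Ccnb2: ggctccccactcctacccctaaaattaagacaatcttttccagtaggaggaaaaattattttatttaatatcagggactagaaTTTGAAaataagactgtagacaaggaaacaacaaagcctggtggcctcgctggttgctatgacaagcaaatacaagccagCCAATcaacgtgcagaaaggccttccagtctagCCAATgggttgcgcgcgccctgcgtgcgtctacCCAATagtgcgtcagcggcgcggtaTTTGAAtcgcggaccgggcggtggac
Cdc20: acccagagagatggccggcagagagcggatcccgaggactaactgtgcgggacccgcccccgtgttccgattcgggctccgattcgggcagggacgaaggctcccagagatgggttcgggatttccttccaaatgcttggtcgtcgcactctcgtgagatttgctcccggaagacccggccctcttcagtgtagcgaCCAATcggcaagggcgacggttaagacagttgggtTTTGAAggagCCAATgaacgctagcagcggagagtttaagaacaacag
Plk1: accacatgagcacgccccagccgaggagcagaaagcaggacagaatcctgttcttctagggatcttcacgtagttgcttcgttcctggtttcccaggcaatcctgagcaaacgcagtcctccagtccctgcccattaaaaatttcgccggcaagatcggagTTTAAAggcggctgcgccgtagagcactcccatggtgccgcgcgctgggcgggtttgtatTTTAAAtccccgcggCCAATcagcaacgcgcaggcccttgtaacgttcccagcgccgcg
RefSeq promoter windows of 300 bases were matched for 27 of the 32 genes by symbol, and Prc1 had more than 1. A CHR word on either strand was in the window of 22 of the 27 genes (81.5%), against 27.6% of all 32851 windows. CCAAT was present in 23 of the 27 (85.2%), against 37.4% of all windows, and both were present in 20 of the 27 (74.1%), against 10.7% of all windows. The E2F-like words TTTGGCGC or TTTCGCGC were found in the window of 1 of the 27, that of Cdk1, and in 0.813% of all windows. Both strands were searched, and no word contains another. All 6 promoters shown hold both kinds of word. Cenpf, with the highest keratinocyte ratio, has 2 CHR words and 2 CCAAT boxes, and Cdc20, among the lowest, has 1 CHR word and 2 CCAAT boxes. Cenpe, next to the highest, has 1 CHR word and 1 CCAAT box, whereas Hmgb2, the lowest, has 2 CHR words and 4 CCAAT boxes. Whether the number of words goes with the ratio was not tested.

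The files held 125458721 UMIs (unique molecular identifiers, each standing for 1 captured transcript) in 9696 barcodes of the Chrna5-/- library and 139673385 UMIs in 10741 barcodes of the WT library, with 34 barcode sequences present in both. After filters 8869 Chrna5-/- cells and 9675 WT cells were kept, with medians of 12316 and 12548 UMIs. Chrna5 itself had 2 UMIs in Chrna5-/- cells and 11 in WT cells, a ratio of 0.202 (95% interval 0.0218 to 0.926), and since the deleted part is not known here these few UMIs check the labels only weakly. Levels below are UMIs of a gene per 1000000 UMIs of the named cell class in that library (CPM), and ratios are Chrna5-/- over WT with an exact 95% interval that covers counting error only. A gene counts as measured when the libraries together hold at least 20 of its UMIs, and as higher or lower when the ratio is at least 1.5 in either direction and its interval leaves out 1. Cell classes carry the suffix "-like" because they were rebuilt here from marker genes. The keratinocyte-like class held 7209 Chrna5-/- cells and 7746 WT cells, with median depths of 14025 and 14242 UMIs and mean mitochondrial shares of 3.12% and 3.31%.

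In keratinocyte-like cells all 32 genes were measured and all 32 had a ratio above 1. Their summed level was 4232 CPM in Chrna5-/- cells and 3364 CPM in WT cells, a ratio of 1.26 (1.25 to 1.26). The median log2 ratio of the 32 was 0.36, whereas that of all 14661 measured genes was -0.04. By the fold rule 5 of the 32 were higher and 0 lower. Across all measured genes 2.64% were higher and 8.09% lower, so the share of higher genes in the list (5 of 32) stood above that background while the typical size stayed under 1.5-fold. Since each gene has only 1 library per genotype, the common direction of the 32 is not 32 independent observations.

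**Figure D1:**
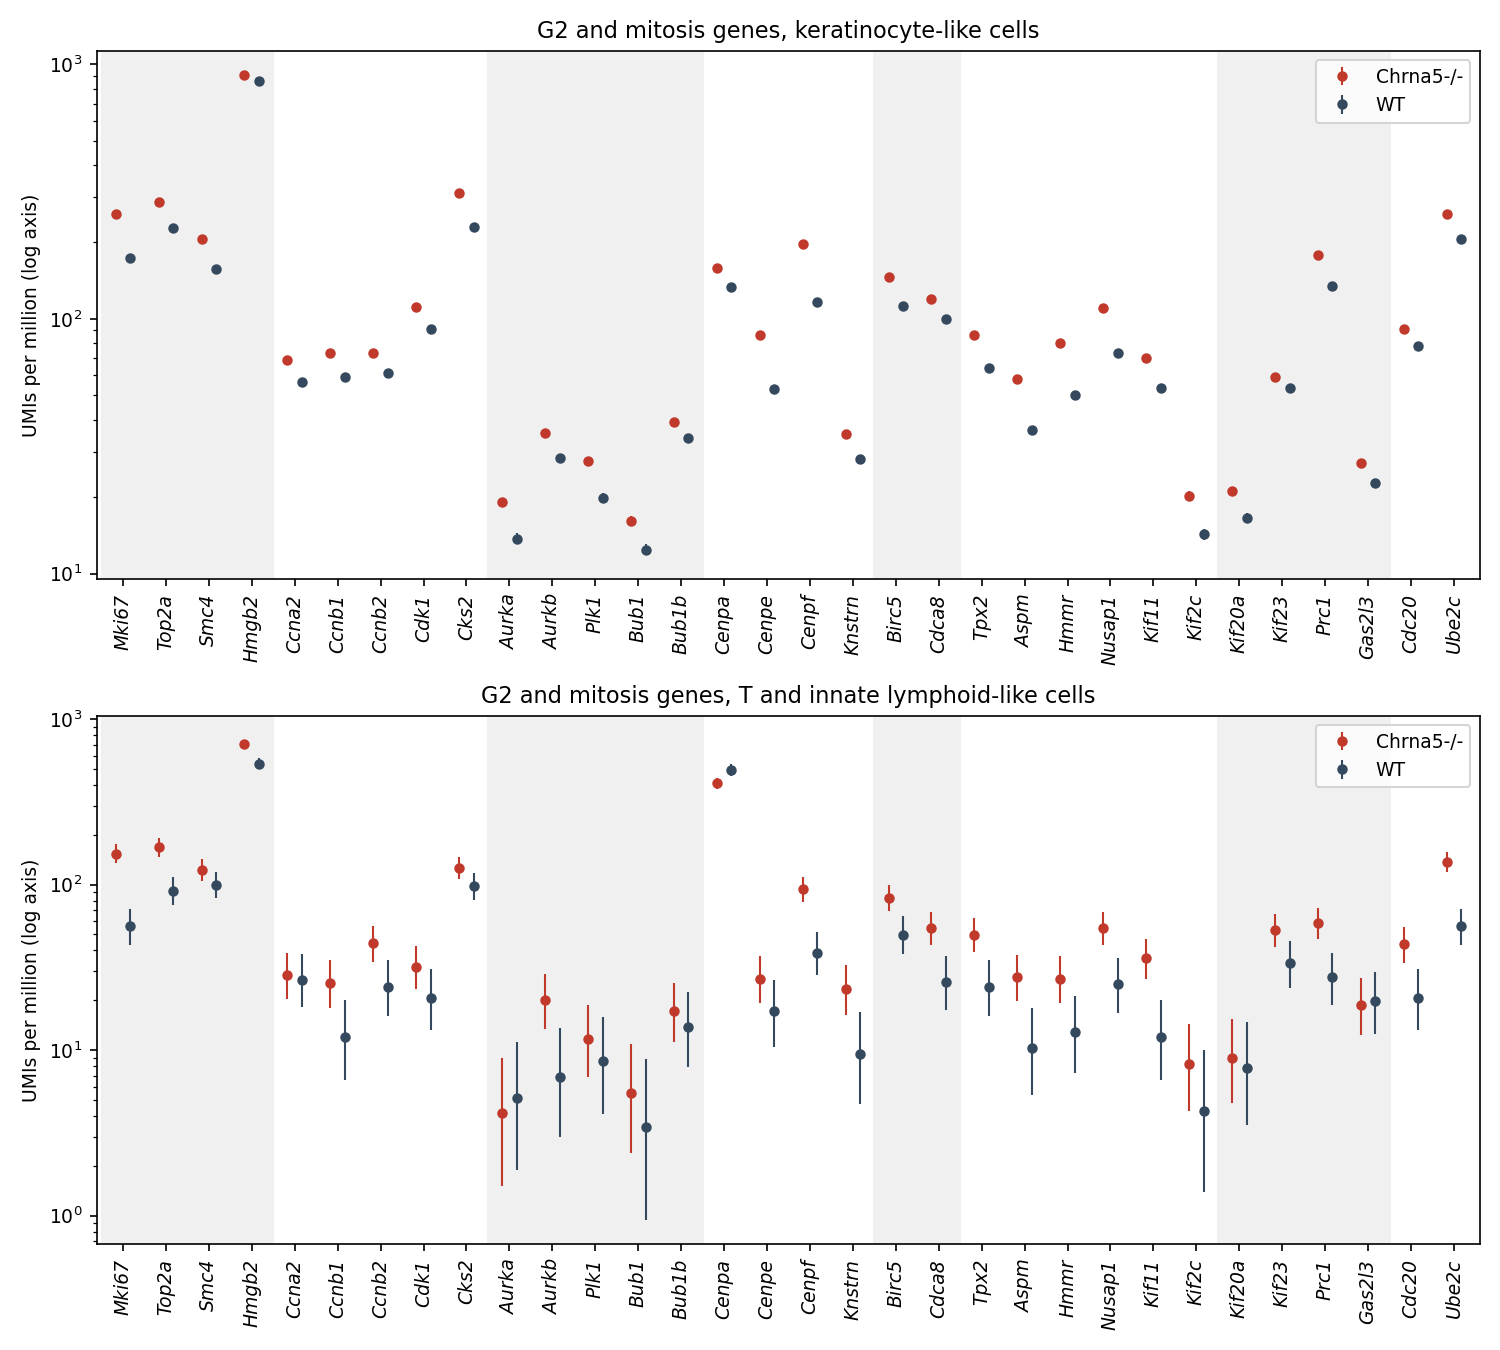
Level of each of the 32 genes in CPM (UMIs per 1000000, log axis) in keratinocyte-like cells (top) and T and innate lymphoid-like cells (bottom), Chrna5-/- in red and WT in blue, with exact 95% Poisson intervals for counting error. Grey bands separate groups of genes by role. In keratinocyte-like cells every red point lies above its blue partner and in the lymphoid class the red points of Cenpa, Gas2l3 and Aurka lie below their blue partners.

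Among the genes of the cyclin and Cdk1 group, levels were modestly higher in the Chrna5-/- library. Ccnb1, which encodes the main mitotic cyclin B1, had 73.7 CPM in Chrna5-/- cells and 59.0 CPM in WT cells, a ratio of 1.25 (1.21 to 1.29). Ccnb2 had 73.5 CPM in Chrna5-/- cells and 61.1 CPM in WT cells, a ratio of 1.20 (1.17 to 1.24). Cdk1, the kinase that these cyclins activate, had 111 CPM in Chrna5-/- cells and 91.1 CPM in WT cells, a ratio of 1.22 (1.19 to 1.25). Ccna2, the cyclin of S phase and G2, lay beside them at 1.22 (1.18 to 1.26). Cks2, a small subunit that binds Cdk1, was the furthest of this group from 1 at 1.36 (1.34 to 1.38). The 5 genes together gave 638 CPM in Chrna5-/- cells and 497 CPM in WT cells, and none reached 1.5.

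The kinetochore and spindle genes differed most between the libraries. Cenpf, a large protein of the outer kinetochore encoded on the minus strand at chr1:189640606-189688086, had 21324 UMIs or 197 CPM in Chrna5-/- cells and 13657 UMIs or 117 CPM in WT cells. Its ratio of 1.69 (1.66 to 1.73) was the highest of the 32. Cenpe, the kinesin of the kinetochore, had 86.8 CPM in Chrna5-/- cells and 52.8 CPM in WT cells, a ratio of 1.64 (1.59 to 1.70). Both thus passed 1.5. The other members of that group did not: Cenpa, the histone H3 variant that marks centromeres, had 159 CPM in Chrna5-/- cells and 134 CPM in WT cells (1.19, 1.16 to 1.21), and Knstrn, a kinetochore and spindle protein, had a ratio of 1.25 (1.20 to 1.31).

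Of the 6 spindle assembly genes 3 were higher by the rule. Hmmr, a spindle-associated hyaluronan receptor, had 80.0 CPM in Chrna5-/- cells and 50.3 CPM in WT cells, a ratio of 1.59 (1.54 to 1.64). Aspm, which organises spindle poles, had 57.9 CPM in Chrna5-/- cells and 36.7 CPM in WT cells, a ratio of 1.58 (1.52 to 1.64). Nusap1, a microtubule bundling protein, had 110 CPM in Chrna5-/- cells and 73.1 CPM in WT cells, a log2 ratio of 0.59 whose interval as a ratio was 1.46 to 1.55. The other spindle genes were nearer to 1, with Kif2c, a microtubule depolymerase, at 1.41, Tpx2, an activator of Aurora A, at 1.34, and Kif11, the kinesin that separates the poles, at 1.31. Summed over the 6, the level was 424 CPM in Chrna5-/- cells and 292 CPM in WT cells, a ratio of 1.45 (1.43 to 1.47).

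Among the genes used as proliferation markers or for chromosome structure the ratios were spread widely. Mki67, which encodes the Ki-67 protein of the mitotic chromosome surface, had 27783 UMIs or 257 CPM in Chrna5-/- cells and 20197 UMIs or 173 CPM in WT cells, a ratio of 1.49 (1.46 to 1.52) just under the threshold. Top2a, the topoisomerase that untangles sister chromatids, had 288 CPM in Chrna5-/- cells and 228 CPM in WT cells, a ratio of 1.27 (1.25 to 1.29). Smc4, a condensin subunit, had a ratio of 1.32 (1.29 to 1.34). Hmgb2, a chromatin protein also present in cells that do not divide, was the lowest of all, with 903 CPM in Chrna5-/- cells and 856 CPM in WT cells (1.05, 1.04 to 1.06).

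The mitotic kinases and the exit machinery lay between these ends. Plk1, the polo-like kinase of mitotic entry, had 27.6 CPM in Chrna5-/- cells and 19.9 CPM in WT cells, a ratio of 1.39 (1.31 to 1.47). Aurka, the centrosomal Aurora kinase, was at 1.39 and Aurkb, the kinase of the chromosomal passenger complex, at 1.26, while Bub1 and Bub1b, kinases of the spindle checkpoint, were at 1.29 and 1.16. Birc5 and Cdca8, partners of Aurkb, were at 1.30 and 1.20. Cdc20, the activator of the anaphase-promoting complex, had 91.4 CPM in Chrna5-/- cells and 78.5 CPM in WT cells, a ratio of 1.16 (1.13 to 1.20), among the 6 lowest. Ube2c, the ubiquitin-conjugating enzyme that works with that complex, was at 1.25 (1.23 to 1.27). In the central spindle and cytokinesis group Prc1 was at 1.33, Kif20a at 1.27, Gas2l3 at 1.20 and Kif23 at 1.10. Kif23, a kinesin of the midbody, had 58.9 CPM in Chrna5-/- cells and 53.3 CPM in WT cells. None of the genes named in this paragraph reached 1.5.

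Cells were also thinned at random to 5000 UMIs each so that depth could not differ, which kept 6376 Chrna5-/- cells and 6958 WT cells and left out 833 and 788 shallower cells. At that depth the summed level was 3332 CPM in Chrna5-/- cells and 2689 CPM in WT cells, a ratio of 1.24 (1.23 to 1.25), and the median log2 ratio was again 0.36. The genes higher by the rule numbered 4 of 32 against a background of 2.32%, and 0 were lower against 7.07%. Cenpf, Aspm, Cenpe and Nusap1 were the 4, and Hmmr stood at 1.49. A UMI of Cenpf was seen in 23.7% of Chrna5-/- keratinocyte-like cells (95% Clopper-Pearson interval 22.6% to 24.7%) and in 18.2% of WT cells (17.3% to 19.1%). In dermal papilla-like cells, a mesenchymal class at median depths of 5352 UMIs in Chrna5-/- and 6733 UMIs in WT before thinning, the corresponding shares at the same depth were 1.10% of 273 Chrna5-/- cells and 1.22% of 410 WT cells. For Cdk1 the shares were closer to each other, at 19.8% of Chrna5-/- keratinocyte-like cells and 18.5% of WT cells, with 1.47% and 1.95% in dermal papilla-like cells. Hmgb2 was seen in 73.4% of Chrna5-/- and 75.6% of WT keratinocyte-like cells, and in 48.7% of Chrna5-/- and 56.1% of WT dermal papilla-like cells, so a UMI of Hmgb2 was common in both classes.

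A cell was placed in the G2/M range when at least 8 of the 32 genes had a UMI after thinning to 5000 UMIs. This range is cut from a count per cell and is not a cell type. It held 1705 of 6376 Chrna5-/- keratinocyte-like cells, or 26.7% (25.7% to 27.9%), and 1694 of 6958 WT cells, or 24.3% (23.3% to 25.4%), a ratio of shares of 1.10 (1.03 to 1.18). Few cells lay at the edge: 38 Chrna5-/- cells and 61 WT cells had exactly 8 genes, and 61 and 80 had 7. In dermal papilla-like cells 1 of 273 Chrna5-/- cells and 3 of 410 WT cells were in the range. Without thinning, 29.9% of Chrna5-/- and 29.0% of WT keratinocyte-like cells held at least 8 of the genes, and those cells carried 93.4% and 91.5% of all UMIs of the list. The libraries differed more at the upper end of the scale than at the cut. At least 20 of the 32 genes were seen in 884 Chrna5-/- cells (13.9%) and in 627 WT cells (9.01%), and at least 25 in 182 (2.85%) and 84 (1.21%).

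**Figure D2:**
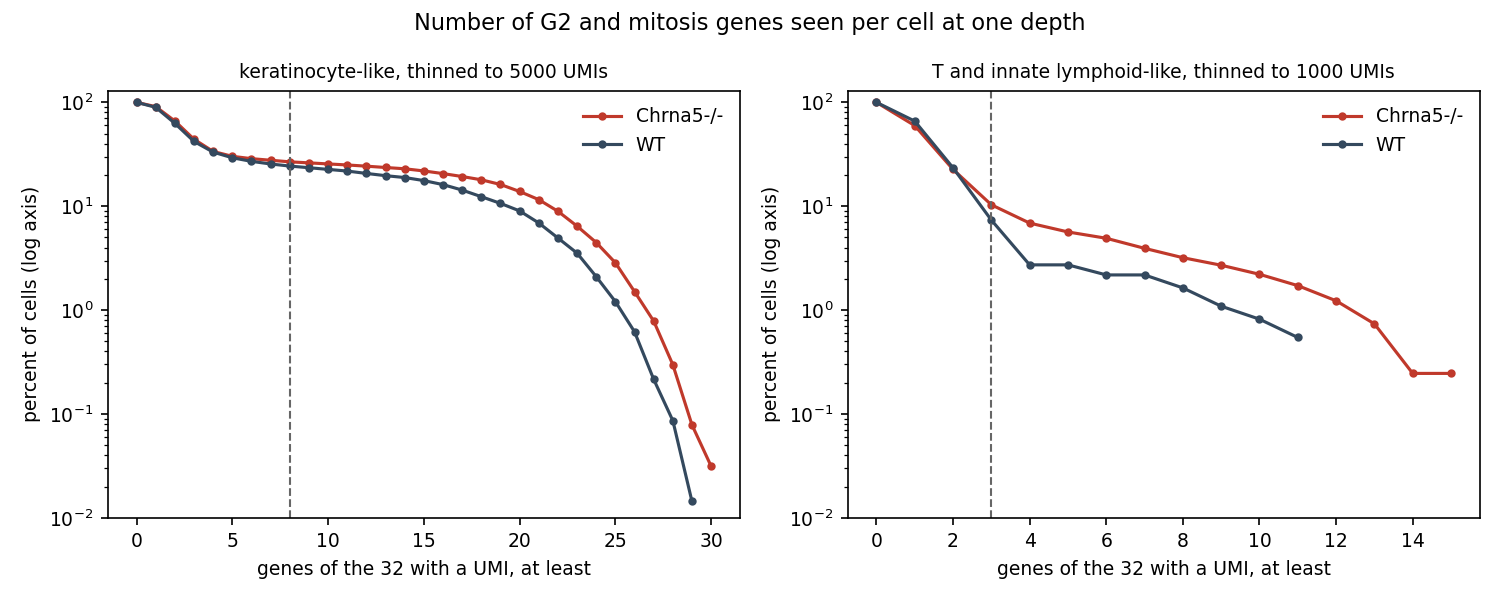
Percent of cells (log axis) with at least the number of G2 and mitosis genes given on the x axis, after thinning each cell to 5000 UMIs (keratinocyte-like, left) or 1000 UMIs (T and innate lymphoid-like, right); Chrna5-/- in red, WT in blue, dashed lines at 8 and 3 genes. In keratinocyte-like cells the curves lie close at 8 genes (26.7% and 24.3%) and part towards 20 genes (13.9% and 9.01%).

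To ask whether the cells in the range also differed in level, 16 genes taken in alternate alphabetical places were used to place cells (at least 4 of 16 with a UMI) and the other 16 to measure them, so that no gene measured the cells it had placed. In 1713 Chrna5-/- cells and 1677 WT cells in the range the measured genes summed to 6992 CPM and 6129 CPM, a ratio of 1.14 (1.13 to 1.15). With the 2 sets exchanged, 1794 Chrna5-/- cells and 1851 WT cells gave 3690 CPM and 2820 CPM, a ratio of 1.31 (1.29 to 1.33). The exchange, which altered both the genes that placed the cells and the genes measured, moved the size but not the direction. The share of cells in the range had a ratio of 1.11 (1.04 to 1.19) with the first placement, whereas with the exchanged one it was 28.1% in Chrna5-/- and 26.6% in WT, a ratio of 1.06 (0.991 to 1.13) that holds 1. Outside the range the same sums were 454 CPM in Chrna5-/- cells and 498 CPM in WT cells (0.912, 0.889 to 0.936) for the first set, and 115 CPM and 114 CPM (1.01, 0.958 to 1.06) for the second. Hmgb2 alone gave a large part of the first sums. It had 251 CPM in Chrna5-/- cells and 299 CPM in WT cells outside the range, and 2151 CPM and 2115 CPM inside it. In the Chrna5-/- library the cells of the range thus had a higher summed level under both placements, and a larger share beyond counting error under one of them. The summed level outside the range was not higher beyond counting error under either, though single genes differed in both directions there.

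Gene by gene inside the range, Cenpf had 503 CPM in Chrna5-/- cells and 311 CPM in WT cells, a ratio of 1.62 (1.54 to 1.70). Aspm had 157 CPM in Chrna5-/- cells and 101 CPM in WT cells, a ratio of 1.56 (1.44 to 1.70), and Cenpe, Hmmr, Nusap1 and Mki67 followed at 1.46, 1.45, 1.42 and 1.40. These are the 6 genes that also headed the order over all keratinocyte-like cells, which include the same cells. At the other end Hmgb2 was at 1.02 (0.996 to 1.04), Bub1b at 1.06 (0.965 to 1.17), Kif23 at 1.06 (0.986 to 1.15) and Cdc20 at 1.07 (1.01 to 1.14). The intervals of Hmgb2, Bub1b and Kif23, and that of Bub1 (0.977 to 1.31), hold 1, so a difference of these genes inside the range was not detectable beyond counting error. Outside the range Cenpf had 8.86 CPM in Chrna5-/- cells and 6.15 CPM in WT cells (1.44, 1.16 to 1.79), whereas Cdk1 had 5.23 CPM and 9.88 CPM (0.529, 0.423 to 0.659) and Gas2l3, a cytoskeletal protein of the midzone, had 1.31 CPM and 2.62 CPM (0.499, 0.313 to 0.779). The intervals of Cks2, Mki67 and Smc4 outside the range also lay above 1. Those of Kif23, Bub1, Ccna2, Ccnb1, Birc5, Top2a, Hmgb2 and Cenpa lay below 1, like those of Cdk1 and Gas2l3.

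**Figure D3:**
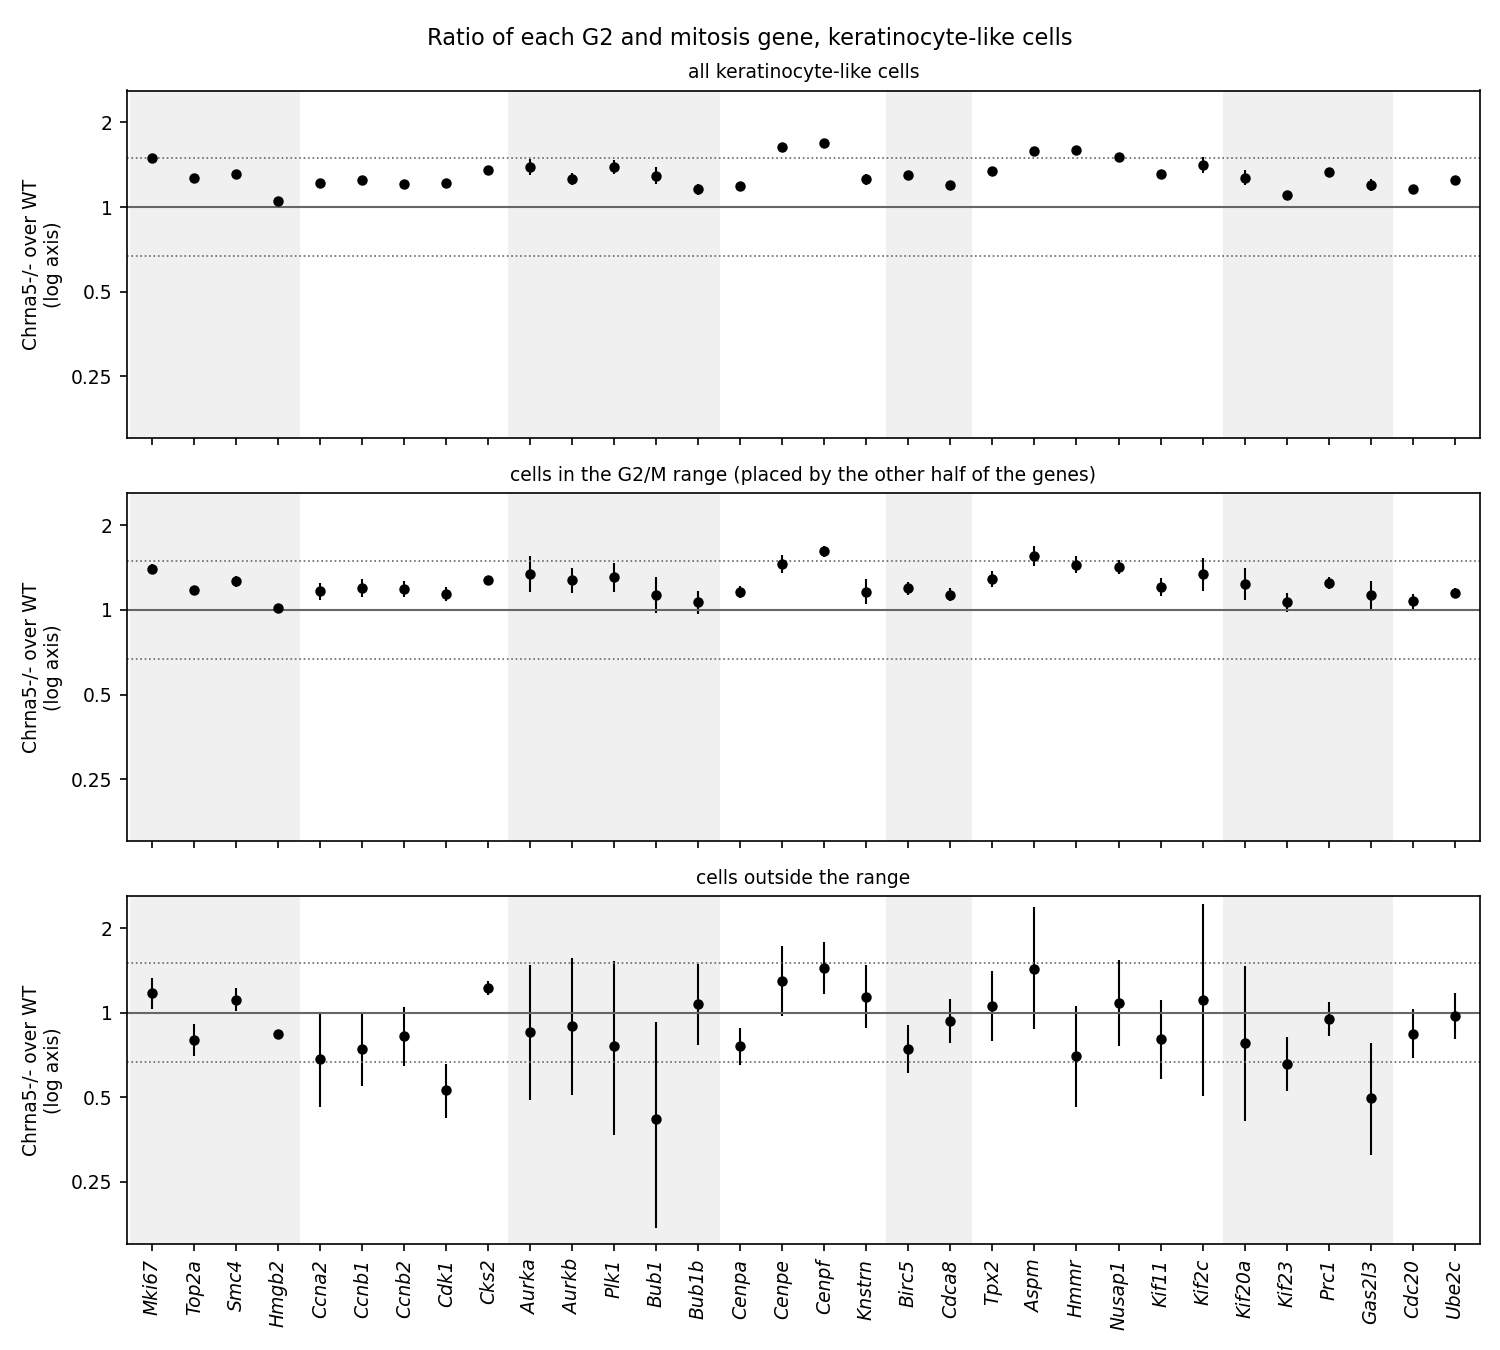
Ratio Chrna5-/- over WT (log axis) of each gene in all keratinocyte-like cells, in cells of the G2/M range and in cells outside it, the last pair with each gene measured only in cells placed by the 16 genes of the set it does not belong to; bars are 95% counting intervals and dotted lines mark 1.5-fold. Inside the range all 32 points lie above 1, from Hmgb2 at 1.02 to Cenpf at 1.62, and outside it they lie on both sides of 1.

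The keratinocyte-like class was divided into states from marker genes. In basal-like cells (4325 Chrna5-/-, 4173 WT) the summed level was 5281 CPM in Chrna5-/- cells and 4224 CPM in WT cells, a ratio of 1.25 (1.24 to 1.26). By the rule 4 of 32 genes were higher (background 3.77%) and 0 lower (5.05%). Cenpf, with 254 CPM in Chrna5-/- cells and 151 CPM in WT cells, had the highest ratio (1.69), followed by Cenpe (1.65) and Aspm (1.58), and Hmmr was the other gene past the threshold. Mki67 and Plk1 were at 1.49 and 1.45. The lowest were Kif23 (1.07), Hmgb2 (1.10) and Gas2l3 (1.12), and Ccnb1, Top2a, Cdk1 and Cdc20 were at 1.22, 1.22, 1.17 and 1.14. Basal-like cells held most of the cells in the range, 1290 of 3952 in Chrna5-/- (32.6%) and 1213 of 3879 in WT (31.3%). The ratio of these shares was 1.04 (0.964 to 1.13), an interval that holds 1, beside the summed ratio of 1.25. The level inside the range was not measured for this state alone.

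Suprabasal-like cells, named from markers and not from their place in the skin, had the lowest levels of the large states and the highest ratio. The 1661 Chrna5-/- and 1344 WT cells had 1949 CPM and 1106 CPM, a ratio of 1.76 (1.74 to 1.79). By the rule 30 of 32 genes were higher (background 4.95%) and 0 lower (4.30%). Aspm had 637 UMIs or 23.0 CPM in Chrna5-/- cells and 199 UMIs or 8.51 CPM in WT cells, the highest ratio at 2.71 (2.30 to 3.19). Hmmr had 37.0 CPM in Chrna5-/- cells and 13.9 CPM in WT cells (2.66), and Cenpe 38.4 CPM and 15.8 CPM (2.44). The genes that did not pass were Kif23 (1.34) and Hmgb2 (1.32), and Cdc20 (1.52) was the next lowest. Cenpf, Plk1, Mki67, Ccnb1, Top2a and Cdk1 were at 2.43, 2.39, 2.36, 2.04, 2.01 and 1.82. In the G2/M range were 166 of 1434 Chrna5-/- cells (11.6%, 9.97% to 13.4%) and 78 of 1224 WT cells (6.37%, 5.07% to 7.89%), a ratio of shares of 1.82 (1.38 to 2.41).

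This suprabasal-like value rested on where dividing cells were placed. Of the 3 clusters in the class, one led by Ube2c and Top2a together with the suprabasal keratins Krt10 and Krt1 held 156 Chrna5-/- and 66 WT cells. It carried 43940 of the 53949 UMIs of the list in Chrna5-/- cells of the class and 16806 of 25879 in WT cells. Inside that cluster the ratio was 1.25, and the other clusters gave 0.961 (0.931 to 0.992) and 1.21 (1.12 to 1.31). When the clustering was repeated from 3 other random starts most of its cells were named basal-like, and the suprabasal-like ratio was 1.02, 0.991 and 0.842. Of the 32 genes 5 were among the variable genes used, so genes of the list helped to form the classes in which they were then measured. A basal-like cluster was likewise led by Cenpf and Cdc20, and a basal-like and an outer root sheath-like cluster by histone genes with Top2a.

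The cells were therefore grouped again without 810 genes, namely the list, the cell cycle lists used below, the histone genes and 488 genes that follow the list over cells, a choice made after the first grouping was seen. The 1710 Chrna5-/- and 1306 WT cells then named suprabasal-like had 1923 CPM and 1211 CPM, a ratio of 1.59 (1.57 to 1.61), with 27 of 32 genes higher (background 4.45%) and 0 lower (4.03%). Hmmr had 36.1 CPM in Chrna5-/- cells and 15.5 CPM in WT cells (2.33), Aspm 21.8 CPM and 9.37 CPM (2.33), and Cenpf 80.1 CPM and 34.5 CPM (2.32). Kif23 (1.17), Hmgb2 (1.21) and Bub1b (1.29) were the lowest. In this class 176 of 1475 Chrna5-/- cells (11.9%) and 95 of 1186 WT cells (8.01%) lay in the G2/M range, a ratio of shares of 1.49 (1.15 to 1.93). From the 3 other starts this grouping gave 1.67, 1.64 and 1.79, so it was above 1.5 in all 4 runs, and the grouping by all variable genes was in 1 of 4. The class ratio of 1.59 was above that of either of its clusters (0.931 and 1.45), and more Chrna5-/- cells (1001) than WT cells (508) sat in the one with the higher level. The shares in the range did the same, at 0.795 (0.441 to 1.41) and 1.33 (0.984 to 1.81) in the clusters, intervals that both hold 1, against 1.49 in the class. The unequal filling of the clusters thus enters the class values. Of the cells of the dividing suprabasal-like cluster, 133 Chrna5-/- and 60 WT cells were named suprabasal-like here too.

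In outer root sheath-like cells of the hair follicle (849 Chrna5-/-, 1473 WT) the summed level was 5055 CPM in Chrna5-/- cells and 4229 CPM in WT cells, a ratio of 1.20 (1.18 to 1.21). Cenpf at 1.59 was the only gene of the 32 higher by the rule (background 2.50%), and 0 were lower (4.25%). Mki67 (1.48) and Nusap1 (1.46) came next, and Hmgb2 (1.01), Bub1b (1.08) and Cenpa (1.08) were the lowest. Top2a, Cdk1, Cdc20, Plk1 and Ccnb1 were at 1.25, 1.18, 1.18, 1.11 and 1.10. Grouped without the genes that follow the list, 777 Chrna5-/- and 1323 WT cells gave 1.30, with 6 genes higher (background 3.15%) and 0 lower (3.34%). Those 6, Cenpf, Hmmr, Mki67, Cenpe, Nusap1 and Aspm, are the 6 that headed the order over all keratinocyte-like cells, which include these cells. Basal-like cells of the same grouping (3931 Chrna5-/-, 3013 WT) gave 1.30 too, with 7 genes higher (background 3.95%) and 0 lower (3.82%), the same 6 and Kif2c. Nearly all of these basal-like cells are in the keratinocyte-like class as well, so the shared genes are not a separate observation.

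In upper hair follicle-like cells (306 Chrna5-/-, 578 WT), led by the keratin Krt79, levels of the list were low and no difference passed the rule. Only 24 genes were measured, of which 12 had a ratio above 1, and the summed level was 501 CPM in Chrna5-/- cells and 472 CPM in WT cells (1.06, 1.01 to 1.12). Most of it came from Hmgb2, with 220 CPM in Chrna5-/- cells and 222 CPM in WT cells, and Cks2, with 102.5 CPM and 78.3 CPM (1.31, 1.16 to 1.48). By the rule 0 genes were higher (background 2.64%) and 0 lower (3.69%). Aspm (2.17) and Hmmr (2.04) had the highest ratios, on 22 and 31 UMIs in all, and intervals that hold 1, while Top2a at 1.49 (1.18 to 1.90) was just under the threshold. Cenpe (0.632), Kif23 (0.643) and Ube2c (0.666) were the lowest, and Cenpf, Cdk1, Ccnb1, Mki67 and Cdc20 were at 1.21, 0.932, 0.924, 0.920 and 0.737. Grouped without the genes that follow the list the class changed its make-up. A cluster led by Ch25h and Epgn (268 Chrna5-/-, 1101 WT cells), with the marker Krt17 among its leading genes, joined it. In the first grouping 266 of these Chrna5-/- cells and 1098 of these WT cells had been basal-like, so the regrouped basal-like class had lost mostly WT cells. The ratio was then 0.885 (0.872 to 0.899), with 0 genes higher (background 4.27%) and 1, Knstrn (0.659), lower (4.26%). Yet each cluster of that class lay above 1, at 1.09 in the Ch25h-led cluster and at 1.55 in the Krt79-led one (351 Chrna5-/-, 593 WT cells; 934 CPM and 605 CPM). The libraries filled these clusters unequally, and the Ch25h-led one had the higher level, with 4626 CPM in Chrna5-/- cells and 4259 CPM in WT cells.

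Hair matrix-like cells, the dividing cells of the hair bulb, had a summed level below that of WT. The class was small, with 58 Chrna5-/- cells and 138 WT cells at unequal median depths of 8826 and 12195 UMIs. The summed level was 7154 CPM in Chrna5-/- cells and 7895 CPM in WT cells, a ratio of 0.906 (0.874 to 0.939), with 0 of 32 genes higher (background 3.92%) and 1 lower (2.56%). That gene was Kif11, with 56.8 CPM in Chrna5-/- cells and 117 CPM in WT cells (0.487, 0.324 to 0.711). Cdk1 (1.17), Prc1 (1.15) and Kif23 (1.15) had the highest ratios, with intervals that hold 1. Cenpa (0.687, 0.544 to 0.860) was low beside Kif11. Gas2l3 (0.399, 0.102 to 1.135) rested on 4 Chrna5-/- and 29 WT UMIs, and its interval holds 1. Mki67 and Top2a were at 1.06 and 1.08, Cenpf at 0.975 and Plk1, Cdc20 and Ccnb1 at 0.840, 0.719 and 0.711. The share of cells in the G2/M range was 19 of 33 in Chrna5-/- (57.6%) and 48 of 93 in WT (51.6%), a ratio of 1.12 (0.619 to 1.93) that holds 1. The mean over cells of each cell's own level gave 1.17 for this class, so its direction depended on how cells were weighted.

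**Figure D4:**
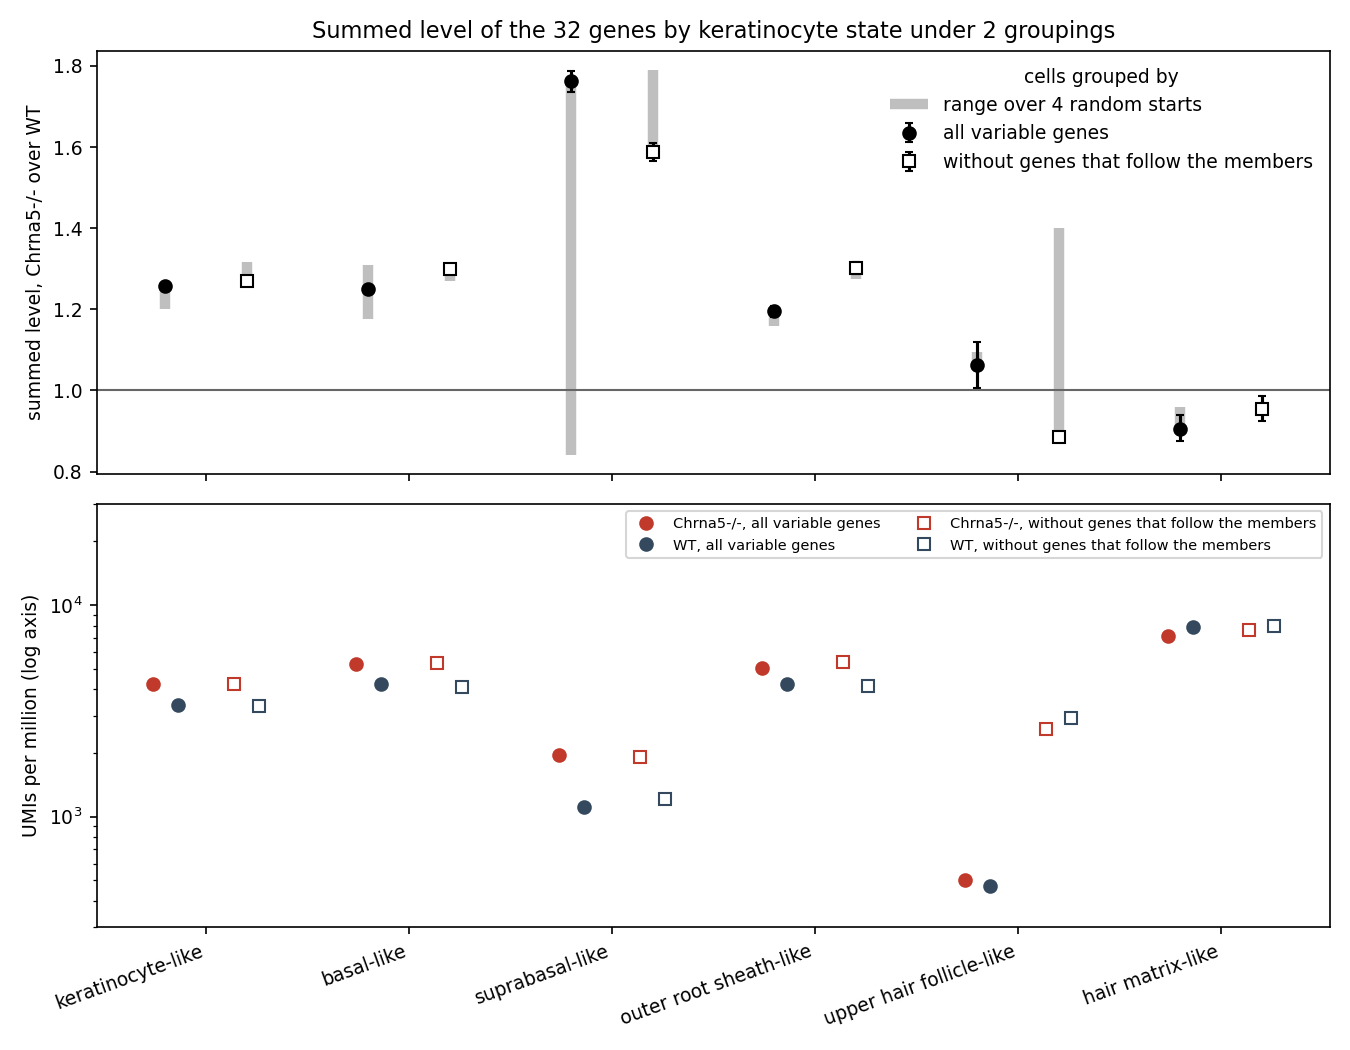
Summed level of the 32 genes in each keratinocyte state as the ratio Chrna5-/- over WT with 95% counting intervals (top) and as CPM on a log axis (bottom; Chrna5-/- red, WT blue), for cells grouped by all variable genes (filled circles) and without genes that follow the list (open squares). Grey bars span the ratios of 4 random starts of each grouping, from 0.842 to 1.76 and from 1.59 to 1.79 in suprabasal-like cells. In upper hair follicle-like cells the second grouping runs from 0.885 to 1.40, and the other states keep their side of 1.

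Within the states the clusters did not all have the same ratio. Grouped without the genes that follow the list, the 4 basal-like clusters had summed ratios of 1.40, 1.15, 1.19 and 1.22. They were filled very unequally, from 1607 Chrna5-/- and 361 WT cells in one to 342 Chrna5-/- and 1118 WT cells in another, so different clusters hold the basal-like cells of the libraries. Of the suprabasal-like clusters, one of 709 Chrna5-/- and 798 WT cells gave 0.931 and one of 1001 Chrna5-/- and 508 WT cells gave 1.45. The widest gap was in an outer root sheath-like cluster led by Sfrp1, Lhx2 and Shisa2, with Lgr5, a marker of hair follicle stem cells, among its leading genes. Its 175 Chrna5-/- cells had 4235 CPM and its 482 WT cells 1442 CPM, a ratio of 2.94 (2.83 to 3.05). In the G2/M range were 26 of 133 of its Chrna5-/- cells (19.5%, 13.2% to 27.3%) and 20 of 371 WT cells (5.39%, 3.32% to 8.20%). The ratio of these shares was 3.63 (1.95 to 6.85), an interval that counts cells and is much wider than that of the level, which counts UMIs. When every keratinocyte cluster of the first grouping was weighted alike in both libraries, the summed ratio of the keratinocyte-like class was 1.13 in place of 1.26 and the median log2 ratio 0.19 in place of 0.36. The part of the unequal cluster filling in the result was not tested further.

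**Figure D5:**
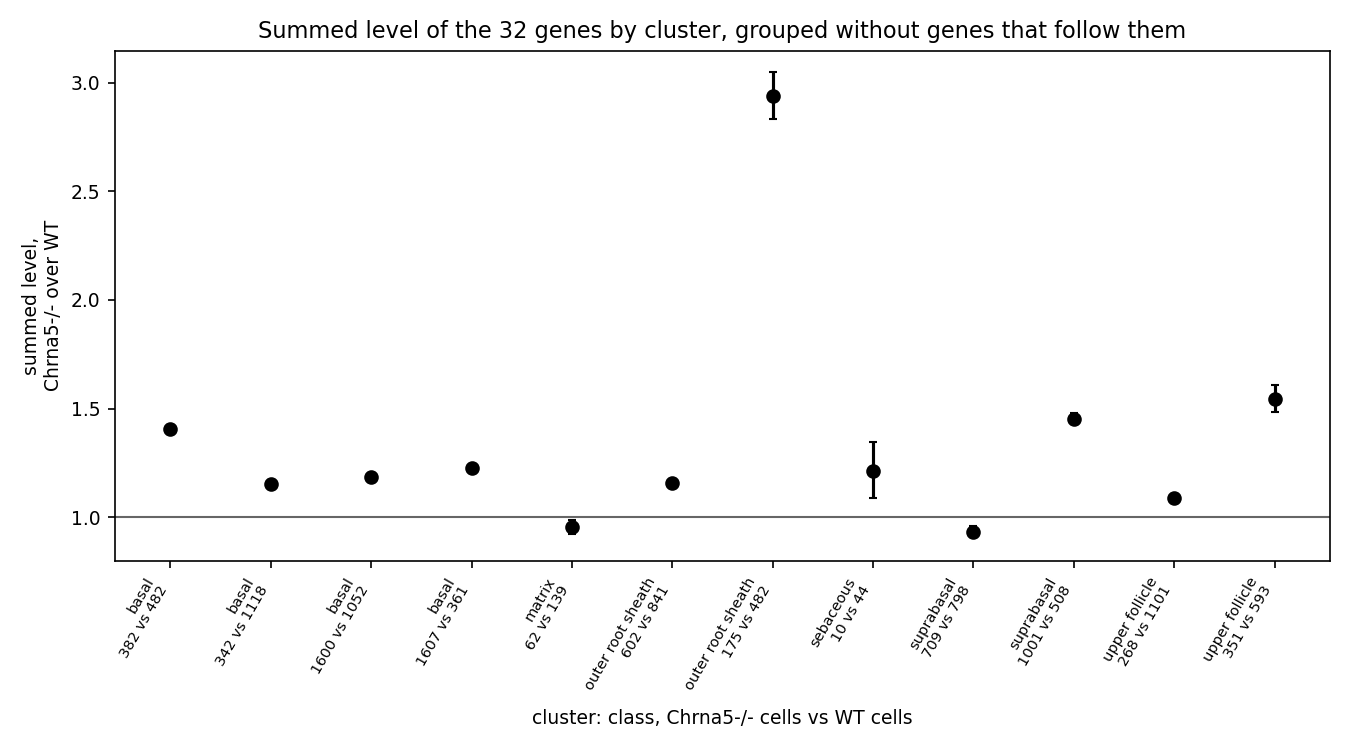
Summed level of the 32 genes in each keratinocyte cluster as the ratio Chrna5-/- over WT with 95% counting intervals, for cells grouped without genes that follow the list; each label gives the class and the numbers of Chrna5-/- and WT cells. Of 12 clusters 10 lie above 1 and 2 below it, with the outer root sheath cluster of 175 and 482 cells highest at 2.94.

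T and innate lymphoid-like cells, recognised by Cd3e, Cd3g and Trdc, numbered 484 in the Chrna5-/- library and 431 in the WT library, at median depths of 2831 and 2627 UMIs. The genes summed to 3882 UMIs or 2681 CPM in Chrna5-/- cells and 2203 UMIs or 1897 CPM in WT cells, a ratio of 1.41 (1.34 to 1.49). Of 29 measured genes 18 were higher by the rule (background 2.71%) and 0 lower (5.08%), with a median log2 ratio of 0.87, against -0.04 over all 8202 measured genes. The highest was Kif11, with 52 UMIs in Chrna5-/- cells and 14 in WT cells (2.98, 1.63 to 5.82). Aurkb (2.91), Mki67 (2.75), Aspm (2.67), Knstrn (2.48) and Ube2c (2.46) followed, Mki67 with 223 UMIs or 154 CPM in Chrna5-/- cells and 65 UMIs or 56.0 CPM in WT cells. Cenpf (2.42), Ccnb1 (2.12), Cdc20 (2.11) and Top2a (1.82) were also higher, and Cdk1 (1.54) and Plk1 (1.36) had intervals that hold 1. At the low end were Cenpa (0.825, 0.734 to 0.926), with 592 UMIs in Chrna5-/- cells and 576 in WT cells, Gas2l3 (0.942), Ccna2 (1.06), Kif20a (1.16), Smc4 (1.23) and Bub1b (1.25). Aurka, Kif2c and Bub1 had under 20 UMIs in all and were not counted.

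These lymphoid values rested on few cells. The 28 Chrna5-/- cells and 12 WT cells that held at least 8 of the genes carried 66.5% and 42.9% of the list's UMIs in the class, and the other cells had 1044 CPM in Chrna5-/- and 1176 CPM in WT. Thinned to 1000 UMIs, with 407 Chrna5-/- and 367 WT cells left, the sums were 1713 CPM and 1501 CPM, a ratio of 1.14 (1.02 to 1.28). Much of these sums came from Hmgb2, with 464 CPM in Chrna5-/- and 450 CPM in WT, and Cenpa, with 341.5 CPM and 444 CPM. A UMI of Hmgb2 was seen in 27.0% of Chrna5-/- and 29.7% of WT cells, and one of Cenpa in 23.3% and 28.1%. At this depth 11 genes were measured, of which 4 were higher (background 2.41%) and 0 lower (4.20%): Prc1, Cenpf, Ube2c and Birc5. The share of cells with at least 3 of the genes at that depth was 42 of 407 in Chrna5-/- (10.3%, 7.54% to 13.7%) and 27 of 367 in WT (7.36%, 4.90% to 10.5%), a ratio of 1.40 (0.845 to 2.37). The interval holds 1, so a difference of the share was not detectable with this cut. With at least 4 of the genes the shares lay further apart, at 28 of 407 in Chrna5-/- (6.88%) and 10 of 367 in WT (2.725%). At 5000 UMIs, which 52 Chrna5-/- and 21 WT cells reached, 20 and 9 of them held at least 8 of the genes, a ratio of 0.897 (0.391 to 2.24), the summed ratio was 1.04 (0.948 to 1.14) and 0 genes were higher. In dermal papilla-like cells thinned to 1000 UMIs, 5 of 489 Chrna5-/- cells and 3 of 561 WT cells held at least 3 of the genes.

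Keratinocyte RNA was present in the lymphoid class, at unequal levels in the libraries. The 11 keratinocyte markers were all above 0 in the class in both libraries and summed to 1924 CPM in Chrna5-/- cells and 2949 CPM in WT cells, against 32990 CPM and 33550 CPM in keratinocyte-like cells. In the cells with at least 8 of the genes the markers summed to 1153 CPM in 28 Chrna5-/- cells and 8330 CPM in 12 WT cells, with Krt79 at 0 in those 12 WT cells. When likely doublets were left in, 554 Chrna5-/- and 491 WT cells had 12880 CPM and 16060 CPM of the keratinocyte markers, and the summed ratio of the list was 0.945 in place of 1.41. The part of keratinocyte RNA in the ratio was not tested. A neighbouring cluster led by Srgn, Cd52, Icos and Il7r (185 Chrna5-/-, 324 WT cells) stayed unnamed and had 1985 CPM in Chrna5-/- cells and 1919 CPM in WT cells, a ratio of 1.03 (0.958 to 1.11). Added to the lymphoid class it gave 1.31.

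Other genes of the cell cycle were read from lists written down with earlier results of these data known. Their counts are to be read against the shares of all measured genes in keratinocyte-like cells, 2.64% higher and 8.09% lower. Of 73 further mitosis genes in keratinocyte-like cells 5 were higher and 0 lower, with a median log2 ratio of 0.25. The 5 were Pimreg, Kif20b, Cenpl, Kif14, a kinesin of cytokinesis, and Sgo2a, which guards sister chromatid cohesion. Pimreg had the highest ratio at 1.65 (1.48 to 1.84), and Hjurp, the chaperone that loads Cenpa, the lowest at 0.885. Of 56 DNA replication genes 0 were higher and 3 lower, with a median of -0.09. The 3 were Mcm2 at 17.9 CPM in Chrna5-/- cells and 28.2 CPM in WT cells (0.635), Mcm3 at 26.6 CPM and 40.1 CPM (0.663), both subunits of the replicative helicase, and Ung, a uracil DNA glycosylase (0.630), while Clspn had the highest ratio at 1.16. With shares this small over all genes, few calls would be seen in a list of 56, so these counts are near the background. Inside the G2/M range the replication genes summed to 2718 CPM in Chrna5-/- cells and 2763 CPM in WT cells (0.984, 0.966 to 1.00), and outside it to 703 CPM and 941 CPM (0.747, 0.732 to 0.762).

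Among 24 genes of transcriptional control 1, Tfdp2, was higher at 1.53 and 0 were lower, with E2f1 the lowest at 0.703. Of 23 G1 cyclins, kinases and inhibitors 2 were higher and 3 lower, and with lists this short no count of this paragraph is read as apart from the same background. Ccng2, a cyclin linked to cell cycle arrest, had 21.4 CPM in Chrna5-/- cells and 12.6 CPM in WT cells (1.71), and Cdkn2d, which inhibits Cdk4 and Cdk6, had 88.2 CPM and 54.6 CPM (1.61). Ccnd1, the cyclin of G1 entry, had 70.5 CPM in Chrna5-/- cells and 107 CPM in WT cells (0.661), Gadd45a, a DNA damage response gene, had 41.7 CPM and 80.8 CPM (0.517), and Cdkn2a, with 5 UMIs in Chrna5-/- cells and 26 in WT cells, was the lowest (0.208). Of 15 subunits and regulators of the anaphase-promoting complex 0 were higher and 0 lower, from Anapc1 at 0.849 to Fbxo5, an inhibitor of the complex, at 1.22. In T and innate lymphoid-like cells 18 of 58 measured further mitosis genes, 7 of 48 replication genes, 1 of 16 transcription genes, 1 of 19 G1 genes and 0 of 14 genes of the anaphase-promoting complex were higher, and Cdk2 of the G1 list was the 1 gene lower, against 2.71% higher and 5.08% lower over all genes measured in the class. Thinned to 1000 UMIs, 3 of 22 measured further mitosis genes, 1 of 13 replication genes and 1 of 7 anaphase-promoting complex genes (Anapc5) were higher. Of 16 G1 genes 2 (Cdkn1b and Trp53) were lower, and of 5 transcription genes 0 were higher or lower. Over all genes measured at that depth 2.41% were higher and 4.20% lower. Without thinning, highest and lowest in these lists were Kifc1 (7.62, 1.84 to 67.5, on 19 Chrna5-/- and 2 WT UMIs) and Ndc80 (0.656), Ccne2 (4.68) and Chaf1b (0.802), E2f6 (3.61) and Nfya (0.729), Cdc25a (2.14) and Cdk2 (0.494), and Anapc5 (1.48) and Cdc23 (0.802).

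In GENCODE vM21 the exons of 9 of the 32 genes overlap those of a gene on the other strand (Ccna2, Cdc20, Ube2c, Plk1, Kif20a, Nusap1, Prc1, Knstrn and Cdca8). Whether the counting used strand was not given in the sources used here, so reads of such a partner cannot be told apart from those of the gene. A different share of dividing cells and a different level per dividing cell cannot be told apart from summed levels alone. The range and the levels inside it are therefore given separately.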

How the data were processed

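The authors deposited 1 matrix of raw UMI counts per gene and barcode for each library. Per the submitters' processing notes, Cell Ranger 3.0.2, Seurat 3.0 and the mm10 build were used; the matrix header names software version 3.1.0. Barcodes with at least 500 UMIs and 300 genes and at most 20% mitochondrial UMIs were kept. Scrublet's own thresholds differed between libraries (0.366 and 0.672), so a common doublet score of 0.25, set after seeing the scores, removed 439 Chrna5-/- and 485 WT cells. Cells of both libraries were clustered together with scanpy 1.11.5 (2000 variable genes, 30 components, exact nearest neighbours, Leiden resolution 1.0), with 3 further random starts added after the grouping was seen to vary, and clusters were named from markers. A cluster whose 10 leading genes held more markers of another list than of its own stayed unnamed, a rule added after seeing the data. The depth per library is given with the results. UMIs were summed per class and library and compared as CPM ratios with exact conditional binomial intervals, without a test, because each genotype has 1 library. The ratio and thinning functions were tested on simulated data. edgeR 4.0.16 gave only the TMM scaling of an alternative. Named are the 6 highest and 6 lowest genes in keratinocyte-like and lymphoid cells, the 3 highest and 3 lowest per state, and Mki67, Top2a, Cenpf, Ccnb1, Cdc20, Cdk1 and Plk1. Other genes of the list are named as whole role groups. The genes and lists were chosen with earlier results of these data known. Intervals cover counting error only.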

Additional observations from a re-analysis of the deposited data

Results flagged for a closer look

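In 4 classes the summed level of the 32 genes lay below 1 while it lay above 1 in basal-like cells (1.25), and each difference between classes was not tested. The ratio Chrna5-/- over WT was 0.906 in hair matrix-like cells, 0.860 in dermal papilla-like cells, 0.596 in melanocyte-like cells and 0.698 in fibroblast-like cells. Dermal papilla-like cells (507 Chrna5-/-, 585 WT) had 345 CPM in Chrna5-/- cells and 402 CPM in WT cells. Of these, 2 Chrna5-/- and 3 WT cells with at least 8 of the genes held 6.78% and 18.8% of the list's UMIs. The other cells had 324 CPM in Chrna5-/- and 329 CPM in WT. Grouped without the genes that follow the list, the class held 507 Chrna5-/- and 588 WT cells and its ratio was 0.634. Melanocyte-like cells numbered 111 in Chrna5-/- and 201 in WT at median depths of 3027 and 5118 UMIs, and grouped without the genes that follow the list their ratio was 0.863. Fibroblast-like cells came from clusters of opposite direction, 0.401 in 261 Chrna5-/- and 159 WT cells and 3.75 in 15 Chrna5-/- and 111 WT cells. In the fibroblast-like class 3 Chrna5-/- cells and 12 WT cells with at least 8 of the genes held 56.6% and 73.7% of the list's UMIs.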

How the results depend on the processing

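No paired analysis was possible because each genotype is 1 library, so leaving out a replicate and a test between replicates could not be run either. The summed keratinocyte-like ratio (1.26) was 1.24 with cells thinned to 5000 UMIs, 1.22 at 1000, 1.27 grouped without genes that follow the list, 1.23 as a mean over cells, 1.13 with clusters weighted alike, 1.29 with TMM and 1.29 with median-of-ratios scaling, and over the other random starts its furthest values were 1.20 and 1.32. Its median log2 ratio (0.36) was 0.28 from the start furthest from it and 0.19 with clusters weighted alike. The basal-like ratio (1.25) was 1.21 (1.215) at 5000 UMIs, 1.21 at 1000, 1.28 with doublets kept, 1.29 grouped without cell cycle genes, 1.30 without genes that follow the list, 1.21 as a mean over cells and 1.13 with clusters weighted alike, and the other starts gave 1.29, 1.31 and 1.18 by all variable genes and 1.27, 1.28 and 1.28 without those that follow. The suprabasal-like ratio (1.76) was 1.67 at 1000 UMIs, 1.38 with doublets kept, 1.42 grouped without cell cycle genes, 1.59 without genes that follow the list, 1.70 as a mean over cells, 1.23 with clusters weighted alike, 1.84 with free RNA subtracted and 1.74 with TMM scaling. The other starts gave 1.02, 0.991 and 0.842 by all variable genes, the last a pair below 1, and 1.67, 1.64 and 1.79 without those that follow. The outer root sheath-like ratio (1.20) was 1.26 at 5000 UMIs, 1.27 at 1000, 1.21 with doublets kept, 1.22 and 1.30 without cell cycle genes and without genes that follow, 1.31 as a mean over cells, 1.16 from the start that moved it and 1.27, 1.28 and 1.28 from the starts without those that follow. The upper hair follicle-like ratio (1.06) turned to 0.967 at 5000 UMIs and 0.885 without genes that follow the list, and was 1.23 at 1000 UMIs, 1.14 with doublets kept, 1.19 as a mean over cells, 1.00 with free RNA subtracted and 1.40 and 1.27 from starts without those that follow. The hair matrix-like ratio (0.906) was 0.951 at 5000 UMIs, 0.963 at 1000, 0.978 with doublets kept, 0.949 and 0.955 under the regroupings, 1.17 as a mean over cells, and 0.958, 0.955, 0.951 and 0.954 from other starts. The lymphoid ratio (1.41) was 1.14 at 1000 UMIs, 1.04 among the few cells that reached 5000, 1.14 as a mean over cells, 1.31 with the unnamed cluster and 0.945 with doublets kept, when log2 ratios were -0.15 for Kif11, -0.088 for Aurkb, -0.074 for Ube2c and -0.23 for Cdc20, and Cdc20 was at -1.47 at 1000 UMIs. The share of keratinocyte-like cells in the range (ratio 1.10) gave 1.24 at 2000 UMIs, the lymphoid share (1.40) gave 2.52 with at least 4 genes and 0.897 at 5000 UMIs with at least 8, and the level inside the range (1.14) gave 1.31 with sets exchanged, 1.17 with at least 3 and 1.13 with at least 5 of 16 genes. Of 954 values of single named genes under these alternatives 729 moved by less than their counting interval, 220 moved more and 5 reversed. The cause of each shift was not tested. Depth limits the lymphoid class, where cells hold medians of 2831 UMIs in Chrna5-/- and 2627 UMIs in WT.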
